A study of Mus musculus with 11 samples.

Results

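The genes described here are 10 genes of epidermal barrier lipid synthesis and transport (Elovl4, Cers3, Cyp4f39, Ugcg, Abca12, Abhd5, Pnpla1, Alox12b, Aloxe3 and Sdr9c7), chosen by name for their place in the ceramide and acylceramide route. All 10 were found among the 24411 genes measured. RNA was sequenced from back skin in which dermatitis had been induced with MC903, a vitamin D analog (calcipotriol) applied to the skin 6 times. In 4 samples the host had received tdTomato-positive marrow cells, from the lineage that has expressed Pdgfra, and in 7 samples tdTomato-negative marrow cells. Both kinds of cells came from femurs of Pdgfra-Cre;tdTomato donors, so the promoter that drives Cre sets which cells carry the label.

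All hosts were Tg(act-EGFP)Y01Osb mice with a labelled age of 16-18, given without a unit, and all were irradiated with 10 Gy before the transplant. They recovered for 6 weeks before MC903, and the skin was collected on day 14. As background, marrow grafts rebuild the blood. How far donor cells contributed to the skin samples was not measured here. No skin without MC903 or without a transplant is part of the series, and the labels leave unsaid whether samples are separate animals, so the spread behind each p-value may be technical. Expected counts per sample summed to between 7228968 and 9749842 with tdTomato-positive marrow and between 7190752 and 8705435 with tdTomato-negative marrow. The members had between 99 and 25936 counts in a sample, and all their estimates were whole numbers.

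The outer epidermis is sealed by lipids between dead cells. Keratinocytes of the granular layer elongate fatty acids to unusual lengths (Elovl4), hydroxylate the far end (Cyp4f39) and join them to a sphingoid base (Cers3). Linoleate is then attached at the hydroxylated end (Pnpla1, helped by Abhd5), which yields acylceramides. Ceramides are glucosylated (Ugcg), loaded into lamellar bodies (Abca12) and secreted, and the linoleate is oxidized step by step (Alox12b, Aloxe3, Sdr9c7) so that ceramides can be bound to the cornified envelope. Inherited loss of many of these genes causes ichthyosis in humans.

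None of the 10 genes differed between the groups past the test over all genes, and the groups overlapped in all 10. A fitted fold change above 0 was found for 9 of them with tdTomato-positive marrow, and Pnpla1 alone had one below 0. What varied more was the level between single samples. The tdTomato-negative replicate 3 had the lowest TPM of 8 of the 10 genes, and it was also lowest for the epidermal marker lists given below. The tdTomato-negative replicate 7 lay above the 11-sample mean TPM in 10 of 10. TPM are relative transcript abundances per effective length and allow levels of different genes to be compared.

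Epidermal markers were present at high levels in every sample. The basal keratins Krt14 and Krt5 averaged 8164 and 3048 TPM, and the suprabasal keratins Krt1 and Krt10 averaged 3857 and 2415 TPM. The 17 granular and suprabasal markers found summed to between 9120.5 and 19825 TPM with tdTomato-positive marrow and between 6246.5 and 19321 TPM with tdTomato-negative marrow. Of these markers 16 were tested, 12 had a log2 fold change above 0, and the median was 0.18, while 48.6% of all genes had one above 0. The 8 basal and the 8 activated epidermis markers each had 7 above 0 and 1 below, with medians of 0.11 and 0.50. With edgeR 0 of the 8 activated markers were higher and 1 was lower at an unadjusted p under 0.05, against 7.05% and 9.73% of all genes. Thus a lean above 0 was not particular to the barrier lipid genes. Nor was the low level in tdTomato-negative replicate 3. It had the lowest summed TPM of the granular, basal and activated lists (6246.5, 6429 and 4855.6 TPM). That sample was also lowest for sebaceous and macrophage markers, but not for adipocyte, skeletal muscle or fibroblast markers. In such whole-skin RNA, fewer cells of a type and less RNA per cell cannot be told apart.

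By level, Elovl4 stood far above the other members. It averaged 1102 TPM over the 11 samples, and it was 6.57 to 17.6 times the level of Abca12, the next gene, in each sample. Elovl4 made up 67.6% to 71.5% of the summed TPM of the 10 genes with tdTomato-positive marrow and 57.5% to 77.8% with tdTomato-negative marrow. Below it came Abca12, Ugcg, Sdr9c7, Abhd5, Cyp4f39 and Cers3, with means from 91.6 to 49.4 TPM. Neighbours in this row did not keep their order: Abca12 exceeded Ugcg in 7 of 11 samples, Ugcg exceeded Sdr9c7 in 9, Sdr9c7 exceeded Abhd5 in 8, and Abhd5 exceeded Cyp4f39 in 7, as Cyp4f39 did Cers3. Cers3 was above Alox12b in 11 of 11 samples. Alox12b (mean 29.5 TPM), Pnpla1 (22.0 TPM) and Aloxe3 (14.4 TPM) were the lowest, and Alox12b exceeded Pnpla1 in 4 of 4 samples with tdTomato-positive marrow and in 2 of 7 with tdTomato-negative marrow.

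**Figure D1:**
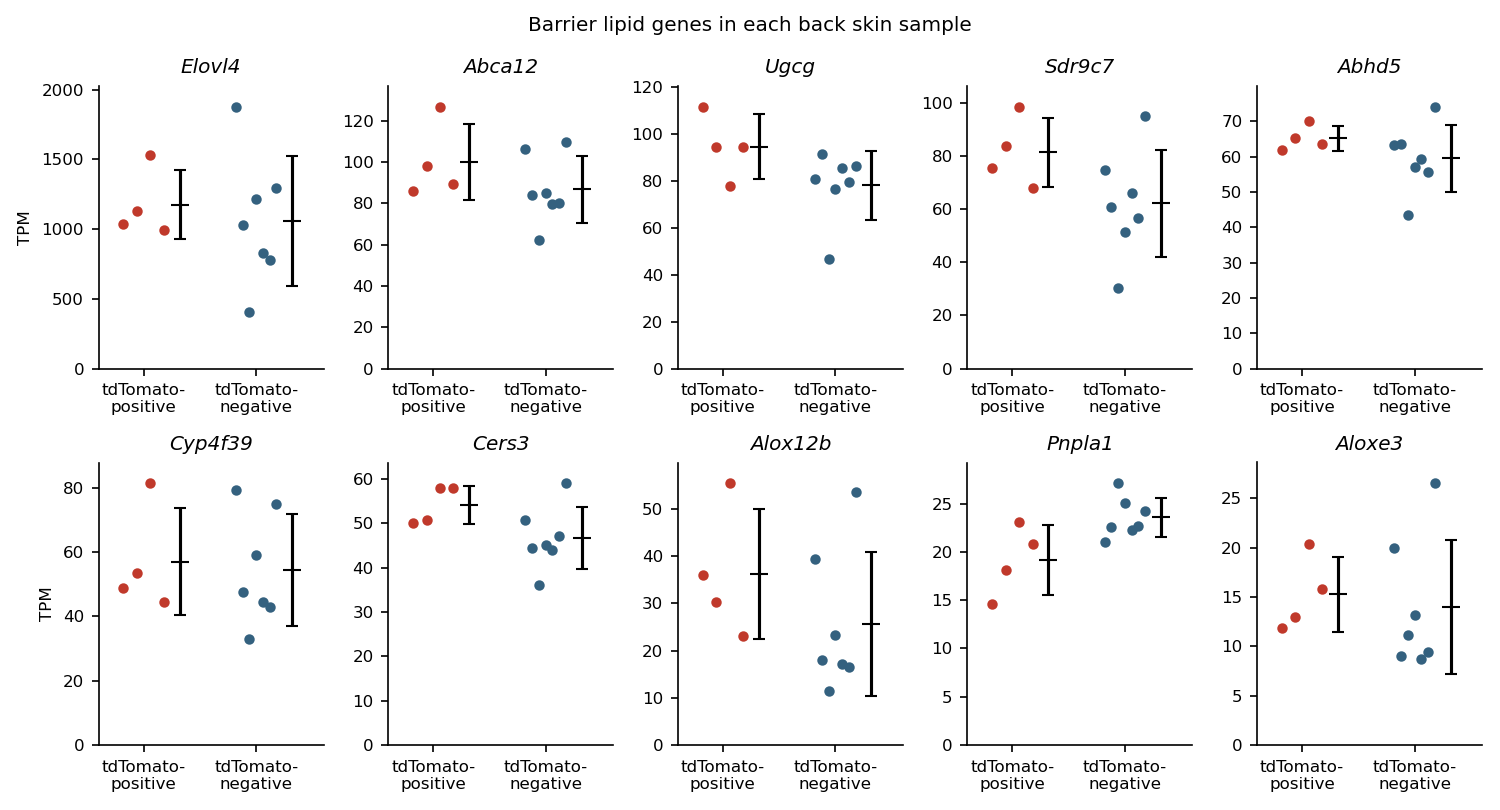
TPM of the 10 genes in each sample, tdTomato-positive (4 samples) left of tdTomato-negative (7 samples), in order of falling mean level; each point is 1 sample, and bars give the mean and SD. The groups overlap in every panel, and Elovl4 spans 408 to 1876 TPM.

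The promoter windows of 4 members are printed because these genes mark the ends of the patterns described: Elovl4 the highest level, Alox12b the widest range between samples, Sdr9c7 the second largest fitted fold change, and Pnpla1 the opposite direction. Sequences are from RefSeq on GRCm38.p6, 250 bases before to 50 bases after a start site that the RefSeq promoter table gives for the gene, read 5′ to 3′ on the gene's strand, and 9 of the 10 members matched (Aloxe3 is named only). That site is the first base of the gene for 5 of the 9. It lies inside the gene, downstream of its first base, by 26 bases in Cyp4f39, 43 in Ugcg, 125 in Pnpla1 and 10386 in Cers3. Capitals mark matches on either strand to the motifs searched: TGANTCA (AP-1), AACCGGTT (grainyhead-like), GGGTGTGG (Klf4-type element), AGGTCA (nuclear receptor element), TATAAA (core promoter box), TTGCGCAA (C/EBP), CCAAT (NF-Y box) and GGGCGG (Sp1 GC box).
Elovl4, chr9:83806256-83806555, minus strand: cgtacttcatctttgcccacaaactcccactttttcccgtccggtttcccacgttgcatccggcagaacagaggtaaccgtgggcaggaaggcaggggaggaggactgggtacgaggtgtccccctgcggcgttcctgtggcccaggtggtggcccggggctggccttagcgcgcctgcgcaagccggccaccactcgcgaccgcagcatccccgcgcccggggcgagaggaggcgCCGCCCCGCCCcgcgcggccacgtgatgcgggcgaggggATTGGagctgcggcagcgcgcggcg
Alox12b, chr11:69156822-69157121, plus strand: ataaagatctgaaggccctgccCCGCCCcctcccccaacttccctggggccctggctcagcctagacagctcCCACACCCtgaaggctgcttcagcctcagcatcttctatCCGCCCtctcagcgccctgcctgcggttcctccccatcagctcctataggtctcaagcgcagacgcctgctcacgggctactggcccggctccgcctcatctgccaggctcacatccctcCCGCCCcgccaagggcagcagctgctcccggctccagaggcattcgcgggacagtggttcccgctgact
Sdr9c7, chr10:127898285-127898584, plus strand: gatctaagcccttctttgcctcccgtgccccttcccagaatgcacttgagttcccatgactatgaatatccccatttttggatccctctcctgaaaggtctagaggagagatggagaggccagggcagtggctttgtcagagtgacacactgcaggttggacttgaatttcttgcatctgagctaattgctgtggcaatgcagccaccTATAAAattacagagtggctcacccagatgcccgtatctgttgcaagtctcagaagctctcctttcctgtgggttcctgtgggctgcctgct
Pnpla1, chr17:28858161-28858460, plus strand: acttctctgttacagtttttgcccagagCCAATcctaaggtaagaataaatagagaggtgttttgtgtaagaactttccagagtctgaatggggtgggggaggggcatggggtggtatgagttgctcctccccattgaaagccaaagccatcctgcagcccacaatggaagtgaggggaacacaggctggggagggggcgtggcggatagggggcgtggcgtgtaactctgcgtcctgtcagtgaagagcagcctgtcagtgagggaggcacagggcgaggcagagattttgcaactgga

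The 9 windows differed in composition and shared no motif throughout. The GC content was 71% for Elovl4, 66% for Alox12b and 81.3% for Ugcg, against 51% for Sdr9c7 and 54.7% for Pnpla1. The GC box GGGCGG was held by Ugcg, Elovl4, Abhd5 and Alox12b, 4 of 9 windows, against 35.7% of all 32851 promoter windows. In Elovl4 its 2 matches overlap by their end bases. The Klf4-type letters GGGTGTGG occurred in Alox12b only, starting 178 bases before the start site, and in 3.56% of all windows. The core promoter box letters occurred in Sdr9c7 only, starting 42 bases before the start site, and in 13.6% of all windows. The element AGGTCA was in Cers3 and Abhd5 (16.3% of all windows) and CCAAT in Elovl4 and Pnpla1 (37.4%). No member window held the letters of the AP-1, grainyhead-like or C/EBP motifs, which were in 7.81%, 0.146% and 0.183% of all windows. A match is a description of letters in these windows only.

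The comparison asked how dermatitis skin differed with marrow of the PDGFRα lineage. With the quasi-likelihood test of edgeR, 0 of the 10 members had a Benjamini-Hochberg adjusted p under 0.05, and 0 of 14588 genes did (0%). The smallest adjusted p of a member was 0.251 (Pnpla1), and 2448 of all genes (16.8%) had an unadjusted p under 0.05. At an unadjusted p under 0.05, Cers3 was higher and Pnpla1 lower with tdTomato-positive marrow, 1 of 10 members in each direction, against 7.05% of all genes higher and 9.73% lower. The groups overlapped in 10 of 10 members, while 1.67% of all genes had groups that did not (0.61% higher and 1.06% lower with tdTomato-positive marrow). The median log2 fold change of the 10 members was 0.16, and that of all genes was -0.01. A fold change above 0 was fitted for 9 of 10 members and for 48.6% of all genes. Among other tools, limma-voom called 0 genes, DESeq2 called 73 of the 11704 genes to which it gave an adjusted p (0.624%) with no member among them, and limma-voom with sample quality weights called 2093 (14.3%) with Pnpla1 among them. The number of members at an unadjusted p under 0.05 was 0 without tdTomato-positive replicate 1 and 4 without tdTomato-negative replicate 7. It was 1 without any single one of tdTomato-positive replicates 2 and 4 and tdTomato-negative replicates 2, 3, 4 and 5.

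Elovl4, the elongase of very long fatty acids (chromosome 9, 83778692 to 83806305, minus strand, GRCm38.p6 for all genes here), had 1034, 1129.7, 1534 and 995 TPM in tdTomato-positive replicates 1 to 4. The 7 samples with tdTomato-negative marrow ran from 408 to 1876 TPM with a median of 1028 TPM. Both the highest and the lowest sample had tdTomato-negative marrow, replicates 1 and 3. On the log2 scale the fold change was 0.14 ± 0.29 (SE; 95% interval -0.49 to 0.77), at an edgeR adjusted p of 0.826.

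Cers3, the ceramide synthase for these long chains (chromosome 7, 66733118 to 66823692), had 50.1, 50.8, 57.9 and 57.9 TPM with tdTomato-positive marrow. With tdTomato-negative marrow it ran from 36.2 to 59.0 TPM with a median of 45.2 TPM. All 4 samples of the tdTomato-positive group lay above that median, and tdTomato-negative replicate 7 lay above all 4 in TPM. In CPM, which are counts scaled to TMM totals, it had 109.0 CPM, below the 109.7 CPM of tdTomato-positive replicate 4. On the log2 scale the fold change was 0.20 ± 0.09 (SE; 95% interval 0.004 to 0.39), at an edgeR adjusted p of 0.293.

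Cyp4f39, the mouse counterpart of the human omega-hydroxylase CYP4F22 (chromosome 17, 32452697 to 32493320), had 48.9, 53.4, 81.4 and 44.6 TPM with tdTomato-positive marrow. With tdTomato-negative marrow it ran from 32.9 to 79.4 TPM with a median of 47.7 TPM. The high samples were tdTomato-positive replicate 3 and tdTomato-negative replicates 1 and 7. The log2 fold change was 0.05 ± 0.21 (SE), the smallest of the 10. It was -0.13 without tdTomato-positive replicate 3 and -0.03 without tdTomato-negative replicate 3, so its direction rested on single libraries.

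Ugcg, the glucosylceramide synthase, which most cell types express (chromosome 4, 59189507 to 59222833), had 111.6, 94.5, 77.9 and 94.5 TPM with tdTomato-positive marrow. With tdTomato-negative marrow it ran from 46.8 to 91.6 TPM with a median of 80.7 TPM. Here tdTomato-positive replicates 1, 2 and 4 lay above all 7 tdTomato-negative samples in TPM. In CPM only replicates 1 and 2 did, as replicate 4 had 206.8 CPM and tdTomato-negative replicate 2 had 212.6 CPM. The tdTomato-positive replicate 3, the highest sample for 4 other members, lay below the tdTomato-negative median. The fitted log2 difference was 0.26 ± 0.16 (SE), at an edgeR adjusted p of 0.395. The 9 macrophage markers found, another source of RNA in these samples, had log2 fold changes above 0 in 9 of 9, against 48.6% of all genes. With edgeR 6 of the 9 were higher at an unadjusted p under 0.05, against 7.05% of all genes. The 9 markers summed to between 794 and 2102 TPM with tdTomato-positive marrow, highest in replicate 1, and to between 688 and 1188 TPM with tdTomato-negative marrow. Their part in the Ugcg level was not tested.

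Abca12, the transporter that loads lamellar bodies (chromosome 1, 71243090 to 71414910, minus strand), had 85.8, 98.1, 126.7 and 89.5 TPM with tdTomato-positive marrow. With tdTomato-negative marrow it ran from 62.1 to 109.5 TPM with a median of 83.9 TPM. All 4 samples of the tdTomato-positive group were above that median. On the log2 scale the fold change was 0.19 ± 0.13 (SE; 95% interval -0.09 to 0.47), at an edgeR adjusted p of 0.448.

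Abhd5, the lipid droplet protein that activates Pnpla1 and the fat lipase Pnpla2 (chromosome 9, 122351616 to 122381524), varied little. It had 61.9, 65.3, 70.1 and 63.6 TPM with tdTomato-positive marrow and 43.3 to 74.1 TPM, with a median of 59.2 TPM, with tdTomato-negative marrow. The 95% interval of its log2 fold change of 0.11 ± 0.10 (SE) ran from -0.10 to 0.33. Fat and muscle use this protein too. The 9 adipocyte markers and the 9 skeletal muscle markers all had log2 fold changes above 0, with medians of 0.56 and 0.41, against 48.6% of all genes above 0. With edgeR 5 adipocyte markers and 1 muscle marker were higher at an unadjusted p under 0.05, against 7.05% of all genes. The adipocyte and muscle lists summed to 1592 to 2639 TPM and 2218 to 3935 TPM with tdTomato-positive marrow, against 1356 to 1929.5 TPM and 1271 to 4057 TPM with tdTomato-negative marrow. Their part in the Abhd5 level was not tested. An antisense gene, A730085K08Rik, overlaps an exon of Abhd5 and had 1.68 to 7.55 TPM with tdTomato-positive marrow and 0.55 to 5.55 TPM with tdTomato-negative marrow. The strand setting of the counting is not given in the sources used here, so reads of the pair cannot be told apart where their exons overlap.

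Pnpla1, the enzyme that transfers linoleate onto hydroxylated ceramide (chromosome 17, 28858286 to 28890308), was the only member with a fold change below 0. It had 14.6, 18.1, 23.1 and 20.8 TPM with tdTomato-positive marrow. With tdTomato-negative marrow it ran from 21.0 to 27.1 TPM with a median of 22.7 TPM. In 3 of the 4 samples with tdTomato-positive marrow it was below all 7 others in TPM, and tdTomato-positive replicate 3 lay inside their range. In CPM it was below all 7 others in 2 of the 4. There tdTomato-positive replicate 4 had 55.4 CPM and tdTomato-negative replicate 1 had 55.2 CPM. The log2 fold change was -0.33 ± 0.11 (SE), with a 95% interval from -0.58 to -0.08 and an edgeR adjusted p of 0.251. Over the other fits and left-out samples the fold change stayed between -0.40 and -0.23, and limma-voom with sample quality weights gave an adjusted p of 0.0269. An antisense gene, Pnpla1os, has 2 exons that overlap exons of Pnpla1 and was not analysed here. Without the strand setting, reads of Pnpla1 and Pnpla1os cannot be told apart either where these exons overlap.

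Set against Cers3, which supplies the ceramide, Pnpla1 stood at 0.292, 0.356, 0.400 and 0.359 times the Cers3 TPM with tdTomato-positive marrow. With tdTomato-negative marrow the ratio ran from 0.410 in replicate 7 to 0.749 in replicate 3. The ratio of Pnpla1 to Cers3 averaged 0.352 ± 0.045 (SD, n = 4) with tdTomato-positive marrow and 0.518 ± 0.115 (SD, n = 7) with tdTomato-negative marrow. The groups did not overlap in this ratio, which was looked at after the values of both genes were known and has no test. With edgeR Pnpla1 was the member lower and Cers3 the member higher at an unadjusted p under 0.05. The separation therefore follows in part from the choice of genes, and ratios of other gene pairs were not counted. Against Abhd5, its partner, the Pnpla1 ratio ran from 0.236 to 0.330 with tdTomato-positive marrow and from 0.327 to 0.625 with tdTomato-negative marrow, and the groups overlapped.

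Alox12b and Aloxe3, lipoxygenases that act in sequence on the linoleate, lie beside each other on chromosome 11 (69157072 to 69169791 and 69125417 to 69149115). Alox12b had 36.0, 30.3, 55.4 and 23.2 TPM with tdTomato-positive marrow, against 11.5 to 53.6 TPM with a median of 17.9 TPM with tdTomato-negative marrow. Its highest sample was 4.83 times its lowest, the widest range of the 10 genes. The log2 fold change of Alox12b was the largest of the 10 at 0.50 ± 0.36 (SE), but its 95% interval ran from -0.28 to 1.28, with an edgeR adjusted p of 0.476. All 4 samples of the tdTomato-positive group lay above the tdTomato-negative median, while tdTomato-negative replicates 1, 4 and 7 lay inside the range of the 4. Leaving out tdTomato-negative replicate 7 gave 0.77, and leaving out tdTomato-positive replicate 3 gave 0.26.

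Aloxe3 had 11.8, 13.01, 20.4 and 15.8 TPM with tdTomato-positive marrow, against 8.73 to 26.5 TPM with a median of 11.2 TPM with tdTomato-negative marrow. Its log2 fold change was 0.12 ± 0.28 (SE), and -0.03 without tdTomato-positive replicate 3. The neighbours were not in a fixed proportion. The Alox12b to Aloxe3 ratio of TPM was 3.05, 2.33, 2.72 and 1.47 with tdTomato-positive marrow, against 1.03 in replicate 3 and 1.76 to 2.02 in the other 6 samples with tdTomato-negative marrow.

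Sdr9c7, the dehydrogenase of the next oxidation step (chromosome 10, 127898535 to 127911761), had 75.3, 83.8, 98.5 and 67.9 TPM with tdTomato-positive marrow. With tdTomato-negative marrow it ran from 30.3 to 95.0 TPM with a median of 61.0 TPM. All 4 samples of the tdTomato-positive group were above that median, and tdTomato-negative replicates 1 and 7 were inside their range. The log2 fold change was 0.38 ± 0.21 (SE), with a 95% interval from -0.08 to 0.84 and an edgeR adjusted p of 0.371.

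**Figure D2:**
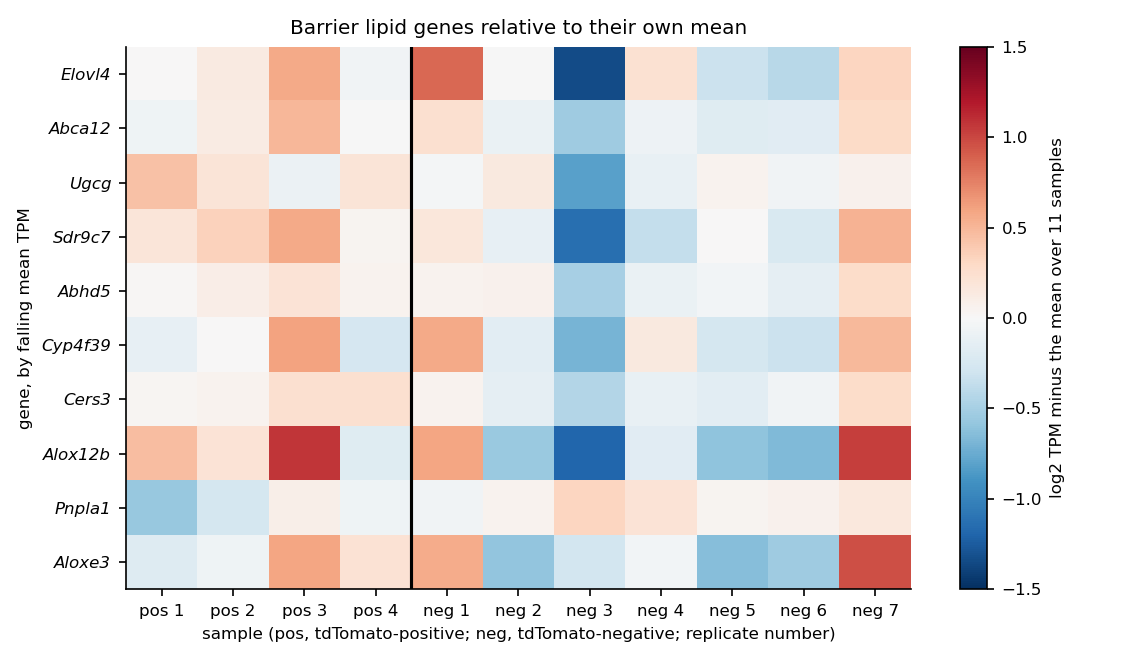
Log2 TPM of each gene minus its mean over the 11 samples, genes in rows by falling mean level, tdTomato-positive samples left of the line and tdTomato-negative samples right of it. The column of tdTomato-negative replicate 3 is the lowest for 8 of 10 genes, the columns of tdTomato-positive replicate 3 and tdTomato-negative replicates 1 and 7 are mostly above 0, and the row of Pnpla1 runs differently.

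Across single samples most members went up and down together. Of the 10 genes, 9 were above their 11-sample mean TPM in tdTomato-positive replicate 3, and 7, 5 and 4 in tdTomato-positive replicates 2, 1 and 4. Among samples with tdTomato-negative marrow, 10 and 8 were above it in replicates 7 and 1, and 1 to 3 in each of the other 5. In CPM, Ugcg in tdTomato-negative replicate 7 lay below its mean (184.2 against 190.1 CPM). So did Cers3 and Abhd5 in tdTomato-negative replicate 1 (95.3 and 114.7 against 96.3 and 116.1 CPM). Pnpla1 in tdTomato-positive replicate 3 did too (60.4 against 60.5 CPM). The 9 members other than Elovl4 summed to 478 to 611 TPM with tdTomato-positive marrow and 301 to 603 TPM with tdTomato-negative marrow.

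Hair follicle markers varied widely between single samples. All 22 markers of growing hair, such as Krt71 and Tchh of the inner root sheath, were tested. The list was chosen with earlier results of these data known. Log2 fold changes were below 0 in 22 of 22 with a median of -2.32, while 48.6% of all genes had one above 0. With edgeR 0 of the 22 passed the adjusted threshold (smallest adjusted p 0.260). At an unadjusted p under 0.05, 5 were lower, against 9.73% of all genes. None of the 22 was at 0 in all samples. Their summed TPM was 1838, 356, 621 and 9574 in tdTomato-positive replicates 1 to 4. It was 1840.1 and 248 in tdTomato-negative replicates 1 and 7 and 16346 to 28860 in the other 5 samples with tdTomato-negative marrow. Alox12b had 39.5 and 53.6 TPM in tdTomato-negative replicates 1 and 7, against 11.5 to 23.4 TPM in the other 5. In tdTomato-positive replicate 4, which had the most hair marker TPM of its group, Alox12b had 23.2 TPM, against 30.3 to 55.4 TPM in the other 3. Sdr9c7 had 74.6 and 95.0 TPM in tdTomato-negative replicates 1 and 7, and 30.3 to 66.3 TPM in the other 5. Cers3 had 50.8 and 59.0 TPM there, against 36.2 to 47.0 TPM in the other 5, but 57.9 TPM in tdTomato-positive replicate 4, the highest of its group. Pnpla1 had 21.0 and 24.2 TPM in tdTomato-negative replicates 1 and 7 and 22.3 to 27.1 TPM in the other 5.

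With the hair follicle score as a term in the edgeR fit, 0 members had an unadjusted p under 0.05, against 7.37% of all genes, and the median log2 fold change of the 10 was -0.01. Alox12b then stood at -0.03 ± 0.17 (SE), Sdr9c7 at 0.09 ± 0.16 and Abca12 at 0.01 ± 0.10. Elovl4, Aloxe3 and Cyp4f39 stood at -0.19, -0.19 and -0.27. Ugcg stood at 0.24 ± 0.18 and Pnpla1 at -0.26 ± 0.13 (SE), against 0.26 and -0.33 without that term. Cers3 stood at 0.12 ± 0.08 and Abhd5 at 0.01 ± 0.09 (SE), against 0.20 and 0.11 without it. With a granular epidermis score as a term, Alox12b stood at 0.31, Sdr9c7 at 0.26, Ugcg at 0.30, Cers3 at 0.15 and Pnpla1 at -0.34. Both scores come from the same libraries as the genes, and what sets the hair marker level was not tested.

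**Figure D3:**
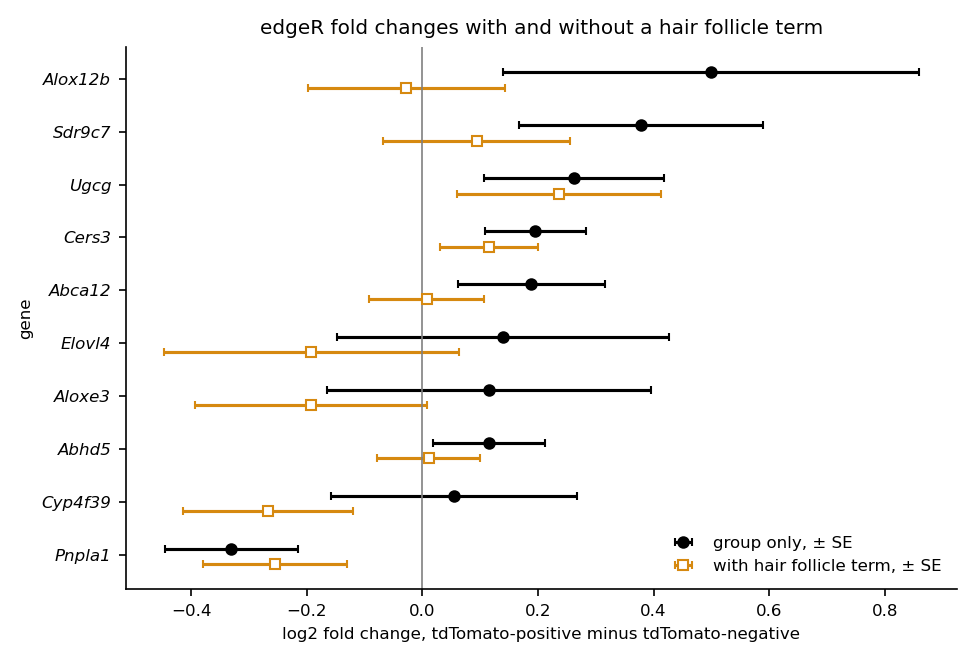
Log2 fold change (tdTomato-positive minus tdTomato-negative) of each gene on the horizontal axis, in the edgeR fit with group only (filled circles) and with the hair follicle score as a term (open squares), bars ± SE. Alox12b moves to -0.03 with the hair term while Ugcg and Pnpla1 stay at 0.24 and -0.26.

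**Figure D4:**
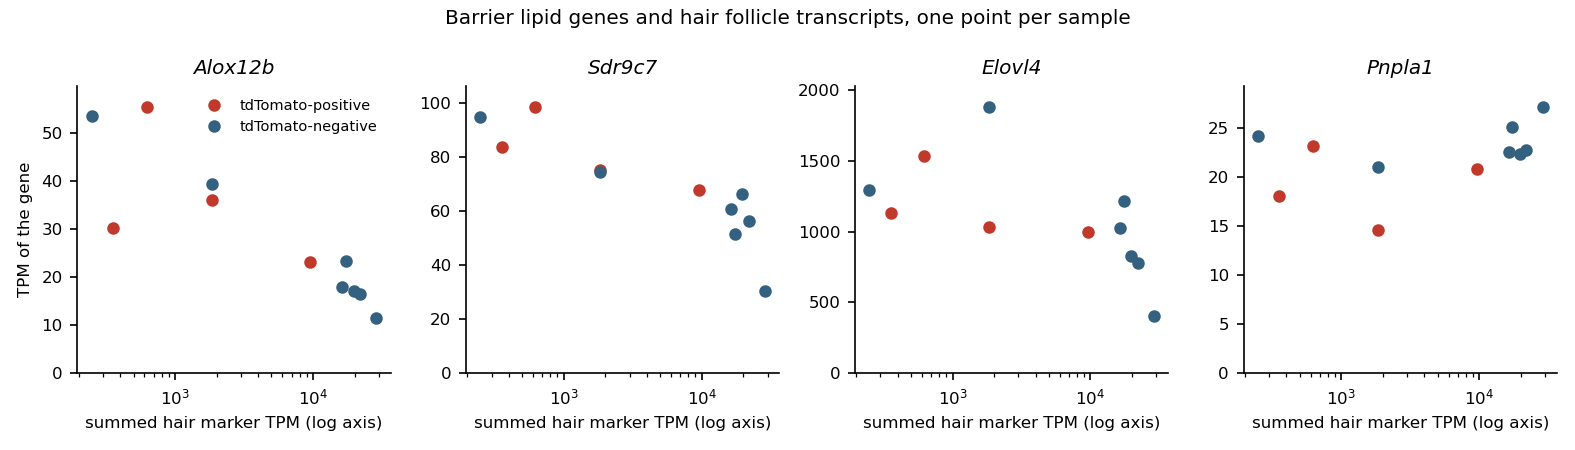
TPM of Alox12b, Sdr9c7, Elovl4 and Pnpla1 against the summed TPM of 22 hair follicle markers on a log axis, 1 point per sample. Alox12b and Sdr9c7 are lowest in tdTomato-negative replicate 3, the sample with 28860 hair marker TPM, where Pnpla1 is highest.

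Markers of the sebaceous glands were also traced. The 11 sebaceous markers, led by Scd1 and Krt79, had log2 fold changes above 0 in 4 and below 0 in 7. They summed to 2824 to 4808.5 TPM with tdTomato-positive marrow, highest in replicate 3, and to 2045 to 5778 TPM with tdTomato-negative marrow, highest in replicate 1 and lowest in replicate 3. Elovl4 had its highest sample of each group and its lowest tdTomato-negative sample in these same replicates. The part of sebaceous glands in the Elovl4 level was not tested.

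Other genes of the pathway were divided between both directions. Lists of 80 other genes of sphingolipid synthesis, fatty acid elongation, ceramide turnover, linoleate oxidation, lipid droplets, lamellar bodies and their regulators were found, and 77 were tested. With edgeR 0 of the 77 were called, 40 had log2 fold changes above 0 and 37 below, and the median was 0.02. At an unadjusted p under 0.05, 6 of 77 were higher (7.79%) and 7 were lower (9.09%), against 7.05% and 9.73% of all genes. DESeq2 called 1 of them, Ovol1, and limma-voom with sample quality weights called 14.

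Of the pathway genes higher with tdTomato-positive marrow, Acsl1, which activates long-chain fatty acids and is abundant in fat, had the smallest p. It had 89.5, 118.5, 157.1 and 124.6 TPM, against 55.9 to 121.3 TPM with tdTomato-negative marrow, a log2 fold change of 0.56 ± 0.18 (SE) with an edgeR adjusted p of 0.248. Alox5, the leukotriene-forming lipoxygenase of leukocytes, averaged 4.76 ± 1.07 TPM (SD, n = 4) with tdTomato-positive marrow and 3.28 ± 0.70 TPM (SD, n = 7) with tdTomato-negative marrow. Ephx2, a soluble epoxide hydrolase, averaged 23.2 ± 5.08 TPM (SD, n = 4) with tdTomato-positive marrow and 18.0 ± 2.01 TPM (SD, n = 7) with tdTomato-negative marrow. Neither passed the adjusted threshold with edgeR.

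Of those lower with tdTomato-positive marrow, Ovol1, a transcription factor of epidermis and hair follicle, had the smallest p. It had 39.1, 30.6, 41.3 and 47.7 TPM, against 48.4 to 76.6 TPM with tdTomato-negative marrow, so the groups narrowly did not overlap in TPM. Of all genes, 1.67% had groups that did not overlap in CPM. The fold change of Ovol1 was -0.70 ± 0.16 (log2, SE), and the adjusted p was 0.248 with edgeR and 0.0222 with DESeq2. With the hair follicle term it was -0.44 ± 0.10 (log2, SE). Ormdl3, which restrains the first enzyme of sphingolipid synthesis, averaged 47.6 ± 6.43 TPM (SD, n = 4) with tdTomato-positive marrow and 56.2 ± 2.79 TPM (SD, n = 7) with tdTomato-negative marrow. Gata3, a transcription factor of epidermis, hair follicle and lymphocytes, averaged 81.3 ± 19.9 TPM (SD, n = 4) with tdTomato-positive marrow and 107.3 ± 10.4 TPM (SD, n = 7) with tdTomato-negative marrow. Among the 12 regulators, 4 were lower at an unadjusted p under 0.05, against 9.73% of all genes, and 8 had log2 fold changes below 0, while 48.6% of all genes had one above 0.

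The genes whose levels ran most like a member's were found by Pearson's r of log2 CPM over the 11 samples, among all tested genes, as a description of likeness with no test. For Sdr9c7 the nearest was Degs1, the dihydroceramide desaturase of the same lipid route, with r = 0.98. The order of the 11 samples was the same in log2 CPM, though not in TPM. Degs1 had 132.9 to 188.1 TPM with tdTomato-positive marrow and 62.8 to 174.1 TPM with tdTomato-negative marrow. For Abhd5 the nearest was Sdr9c7 itself (r = 0.95). The nearest to Elovl4 was Scp2, a sterol carrier protein (r = 0.99), and the nearest to Abca12 was Tgm5, a transglutaminase of the epidermis (r = 0.97). Cltb, a clathrin light chain, and Hk1, a hexokinase, were nearest to Alox12b (r = 0.99 and 0.98). Pnpla1 was nearest to Cbx2, a Polycomb protein, and Rbm15b, an RNA-binding protein (r = 0.98 for both), and Ugcg to Rock1, a kinase (r = 0.97). Aloxe3, Cers3 and Cyp4f39 were nearest to Als2cl, Rdh16 and Nfe2l1 (r = 0.97, 0.94 and 0.97), of which Rdh16 had at most 1.77 TPM. Such values are the highest among 14588 genes and share the libraries, depth and tissue makeup of the same samples.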

How the data were processed

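Total RNA libraries of back skin depleted of ribosomal RNA were measured in 11 samples, 4 with tdTomato-positive and 7 with tdTomato-negative donor marrow, per the labels. Per the submitters' processing notes, bcl2fastq, Trim Galore and RSEM were used with GRCm38, and neither versions nor aligner nor strand mode is stated in the sources read here. As deposited by the authors, expected counts are unnormalized RSEM estimates per gene. The TPM deposited by the authors are scaled to effective length and to the same total per sample. Effective lengths served an offset only.

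Expected counts were rounded to whole numbers. Genes passing filterByExpr of edgeR (minimum count 10, minimum total 15), 14588 of 24411, were scaled with TMM and tested with edgeR 4.0.16 glmQLFit in legacy mode and glmQLFTest (R 4.3.3), with group as the only term and Benjamini-Hochberg adjustment over all tested genes. Standard errors were obtained as log2 fold change over the root of F. CPM use TMM-scaled totals, with a prior count of 2 on the log2 scale. Marker scores are mean z-scores of log2 CPM. The fits were tested on simulated counts with 200 changed genes. Alternatives were other scalings, no filter, DESeq2 1.42.0, limma 3.58.1 (voom, voom with sample quality weights, trend on log2(TPM + 1) and log2(TPM + 0.1)), length offsets, marker scores as terms, replicate blocks and left-out samples. For 8040 genes DESeq2 gave NA as adjusted p.

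Named genes were all members, the 3 pathway genes with the smallest p in each direction, the nearest genes by r and the most abundant markers. The members and lists were chosen with earlier results of these data known. Of the marker symbols, Loricrin is listed as Lor, and Flg was not analysed here. Precision covers counting error and the spread between samples only, as libraries had no molecular identifiers to tell molecules apart. Protein sequences were not used here.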

Additional observations from a re-analysis of the deposited data

Results flagged for a closer look

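Ugcg stood far from its group in 1 sample: tdTomato-negative replicate 3 had 46.8 TPM, and the other 6 samples with tdTomato-negative marrow had 76.5 to 91.6 TPM. Such a gap was looked for in 34 sets of values (members, their sum and 6 pathway genes in each group) and found in this 1, where chance gives about 1.7. The same sample was the lowest for 8 of the 10 members and for the summed granular, basal and activated epidermis markers. Without it the log2 fold change of Ugcg was 0.18, against 0.26 with it.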

How the results depend on the processing

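Under the settings tried, the fold changes of members changed direction in 10 cases, and 1 gained a call. Abca12, Cers3, Sdr9c7, Ugcg, Abhd5 and Pnpla1 turned in none. With the hair follicle score as a term, the median of the members was -0.010, and Alox12b, Aloxe3, Elovl4 and Cyp4f39 stood at -0.028, -0.19, -0.19 and -0.27. With the granular epidermis score, Aloxe3, Elovl4 and Cyp4f39 stood at -0.061, -0.021 and -0.13. With single samples left out, Aloxe3 ranged from -0.027 (without tdTomato-positive replicate 3) to 0.33, and Cyp4f39 from -0.13 (without the same sample) to 0.17, with -0.026 without tdTomato-negative replicate 3. The cause was not tested. DESeq2 called 73 genes and 1 pathway gene. Sample quality weights called 2093 genes, 14 pathway genes and 1 member, with 5 members at an unadjusted p under 0.05. That number was 1 with limma-trend at either pseudocount and with the granular score, 0 with the hair score, 1 without tdTomato-negative replicates 1 and 3 together (chosen after seeing the data) and 0 to 4 with single samples left out, which gave 0 to 3 genes called in all and a median of 0.10 to 0.25. With the replicate number as a block it was 4, with 8 or 11 samples, and 0 members were called. Same-numbered samples deviated with correlations of -0.14 to 0.34 over 4 pairs, and 0 of 4 was closest to its own number. The labels do not say what the numbers mark, and so few correlations cannot exclude a shared litter or day.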

Other observations

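The sums of other lipid gene lists had their extremes in different samples. The 15 genes of fatty acid elongation summed to 1537 to 2693.5 TPM with tdTomato-positive marrow, highest in replicate 3, and to 1182 to 3054 TPM with tdTomato-negative marrow, highest in replicate 1 and lowest in replicate 3. The 6 genes of the other ceramide synthases and the fatty acid 2-hydroxylase summed to 386 to 876 TPM with tdTomato-positive marrow and 284 to 1053 TPM with tdTomato-negative marrow, with the same extreme samples among those with tdTomato-negative marrow, which are also those of Elovl4. The 8 genes of ceramide processing ran from 775 to 1065 TPM with tdTomato-positive marrow and from 752 to 1119 TPM with tdTomato-negative marrow. There replicate 1 was highest and replicate 5 lowest. The 12 genes of late oxidation ran from 209 to 274 TPM with tdTomato-positive marrow and from 222 to 265 TPM with tdTomato-negative marrow. There replicate 1 was highest and replicate 7 lowest. The 5 genes of lamellar body trafficking ran from 204 to 215 TPM with tdTomato-positive marrow and from 167 to 219 TPM with tdTomato-negative marrow. There replicate 7 was highest and replicate 3 lowest.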
